A study of Mus musculus with 6 samples.

Results

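Translation initiation and elongation factors were examined in C2C12, an established line of mouse myoblasts, the precursors of skeletal muscle fibres. The genes were chosen by name: every probe set that the platform annotation pairs with exactly 1 gene whose symbol begins with Eif or Eef, with the eIF2 kinases (Eif2ak) left out. This gave 143 probe sets for 55 of the 18193 genes named on the array, and each gene was represented by its brightest probe set. The cells carried an integrin alpha7 gene under tetracycline control, integrin alpha7 being a laminin receptor subunit of muscle. Growth medium rich in serum (20%) was used on all cells over the 36 h before harvest, to hold them as undifferentiated myoblasts. The arrays labelled induced (3) came from cells given 1 µg/ml tetracycline and the noninduced arrays (3) from cells given none. No group of cells without the construct was analysed here, so tetracycline itself and integrin induction cannot be told apart. According to the series' design, the 3 samples in a group are biological triplicates.

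Translation starts when eIF2 brings the initiator tRNA to the small ribosomal subunit, eIF3 and the eIF1 factors hold the complex open, and the eIF4 factors bind the mRNA cap and unwind the leader. eIF5 and eIF5B then lead to joining of the large subunit, and eEF1 and eEF2 elongate the chain. Cells restrain the process at several points: eIF4E-binding proteins block the cap-binding factor unless mTORC1 phosphorylates them, phosphorylation of eIF2 stalls its exchange factor eIF2B, and the kinase eEF2K inactivates eEF2. In muscle these steps set the rate of protein synthesis and growth. The arrays measure mRNA, so none of the values below reports phosphorylation or protein.

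The Itga7 probe set gave no higher signal on the arrays labelled induced. Itga7 gave 675, 727 and 676 on the arrays labelled induced, against 811, 778 and 786 on the noninduced arrays (log2 fold change -0.19, limma adjusted p = 0.178). The labels do not state which part of the transcript the construct carries, so this probe set may check nothing, and the treated arrays are called labelled induced throughout. Of 5 myoblast markers all 5 lay above the signal filter, with a summed signal of 5530 to 5813 on the arrays labelled induced and 5855 to 5973 on the noninduced arrays. The summed signals of 6 markers of differentiated myotubes were 299 to 333 and 278 to 360 in the same order. Of these markers 3 lay above the filter, with log2 fold changes from -0.25 to 0.25. Above the filter lay 0 of 2 adipocyte markers (summed signal 4.99 to 11.9 with the label induced, 14.1 to 33.2 without), 0 of 2 endothelial markers (10.5 to 20.4 and 24.0 to 27.2), 2 of 3 macrophage markers (54.7 to 59.4 and 49.7 to 78.5) and 1 of 3 fibroblast markers (85.5 to 122 and 64.4 to 82.8). The fibroblast marker was Pdgfra (mean 80.6 on the arrays labelled induced, 49.3 on the noninduced arrays; log2 0.56, limma adjusted p = 0.194). The median signal of an array was 22.9 to 24.9 with the label induced and 24.99 to 27.7 without it, and the 3′ to 5′ probe set ratio was 0.761 to 0.782 and 0.788 to 0.802 for Gapdh and 1.12 to 1.14 and 1.1 to 1.11 for Actb (exact two-sided permutation p = 0.1 for each, the smallest that 3 against 3 arrays allow). Labelled induced replicates 2 and 3 were assigned to a second fluidics run, inferred from a gap in the recorded hybridisation times. The scanner read all noninduced arrays ahead of those labelled induced. Group and order of scanning therefore cannot be told apart. The part of these differences in the results below was not tested.

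Of the 52 translation factor genes that could be tested, Eif4ebp1, which encodes an inhibitor of cap-dependent initiation, was the single one to change: it rose on the arrays labelled induced, 1.28-fold, a call that was lost without any 1 of 4 arrays. Most other factors lay close to their noninduced level, and the largest difference that did not pass was that of Eif5a2, a second eIF5A gene (log2 0.56). Signals were compared as log2(signal + 16) with limma over all 22518 probe sets in the brighter part of the array (a mean on that scale above the overall median, which is a signal of about 22.6), and a change means an adjusted p under 0.05. Of the 55 genes 52 lay above that filter, 1 rose, none fell and 51 did not pass; 11 of the 52 had an unadjusted p under 0.05. By that adjusted threshold 0.307% of all 10757 genes and 0.2% of all probe sets were called, and 15.9% of genes had an unadjusted p under 0.05. The log2 fold change was positive in 27 of the 52 genes and negative in 25, with a median of 0.01 against -0.01 over all genes tested. That split follows the scaling: with every array centred on its own median, 46 of the 52 were positive (88.5%) and 6 negative, beside 47.8% positive before and 71.4% positive after centring among all genes. In 34 genes it was under 0.10 in size and in 47 under 0.20. The median size was 0.064, against 0.103 over all genes, and the median 95% interval reached 0.13 to either side. The translation factors were bright, with a median signal of 1699 on the arrays labelled induced, against a filter of about 22.6. Sizes were not compared at like signal, so the part of brightness in that difference was not tested. Centring added about 0.09 to every value, so that the median became 0.10 against 0.08 for all genes. It used the median of all non-control probe sets on an array. The array medians, 22.9 to 27.7, lay close to the signal filter of about 22.6. Centring therefore aligned the arrays at dim signals, far below those of most translation factors, and values after it carry that limit. In bulk samples, less RNA per cell and fewer cells that hold it cannot be told apart.

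**Figure D1:**
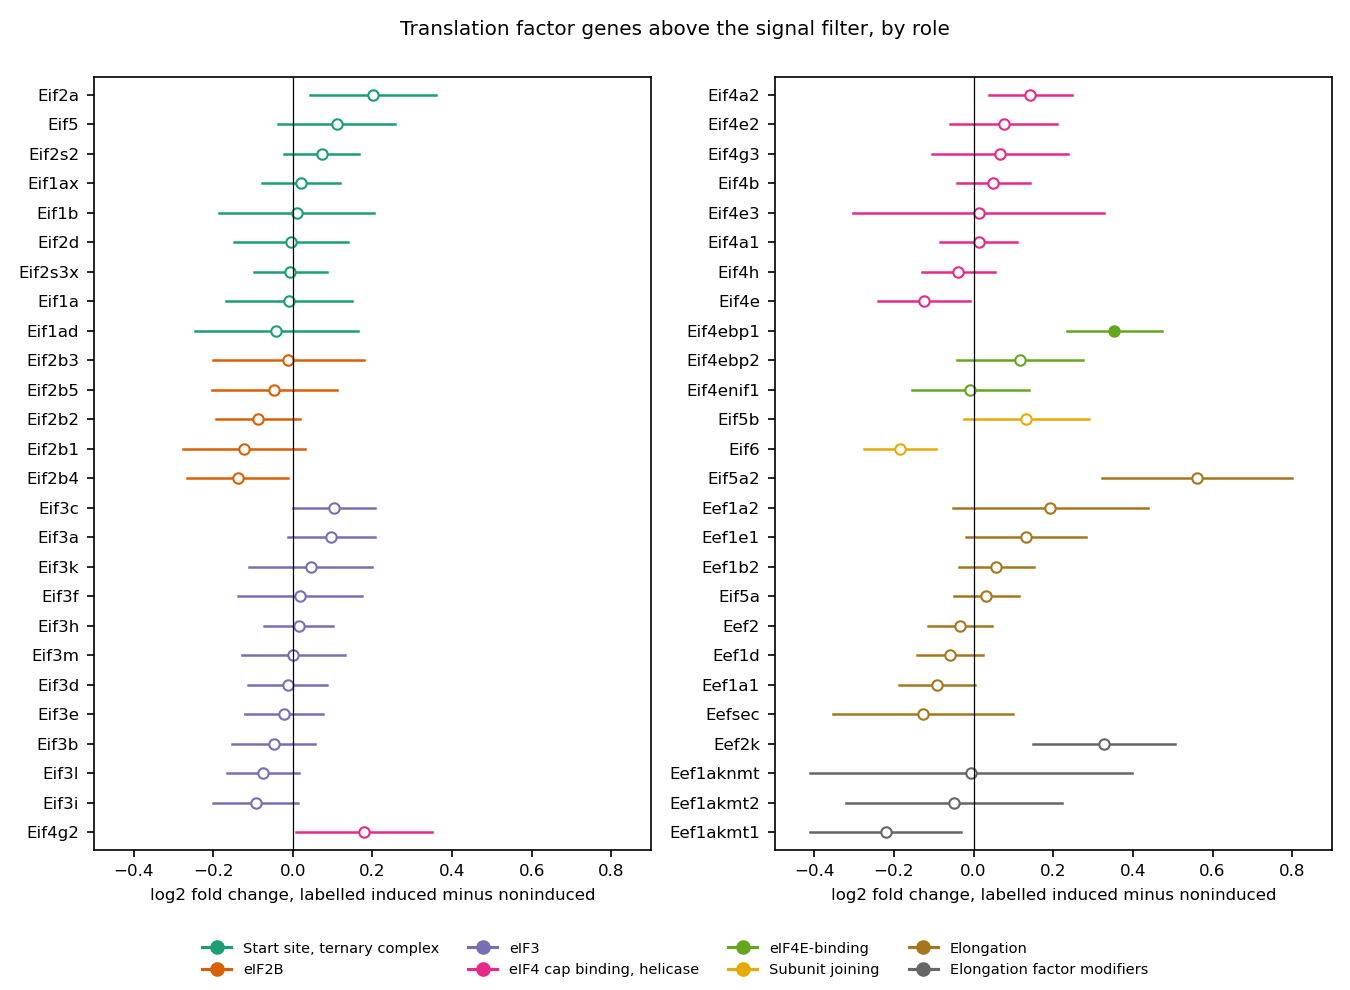
Log2 fold change (x axis, arrays labelled induced minus noninduced arrays, log2(signal + 16)) with its 95% interval from limma for the 52 translation factor genes above the filter, coloured by role. The filled point is Eif4ebp1, the single gene with an adjusted p under 0.05 (0.35), and open points did not pass.

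In some genes every array of one group lay beyond every array of the other. All 3 arrays labelled induced lay above all 3 noninduced arrays for 7 of the 52 genes (13.5%), against 10.7% of all genes, and below them for 8 (15.4%), against 11.6% of all genes. The 7 were Eif4ebp1, Eif4ebp2, Eef2k, Eif5a2, Eif2a, Eif4a2 and Eif3c. The 8 were Eif6, Eif4e, Eif2b2, Eif2b4, Eif3b, Eif3l, Eef1a1 and Eef1d. Over all 122 probe sets of the family above the filter, 37 (30.3%) had groups that did not overlap, 19 higher and 18 lower, beside 20.3% of all probe sets tested. Probe sets of 1 gene share their transcripts, so these are not 37 separate observations, and the difference in shares was not tested.

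**Figure D2:**
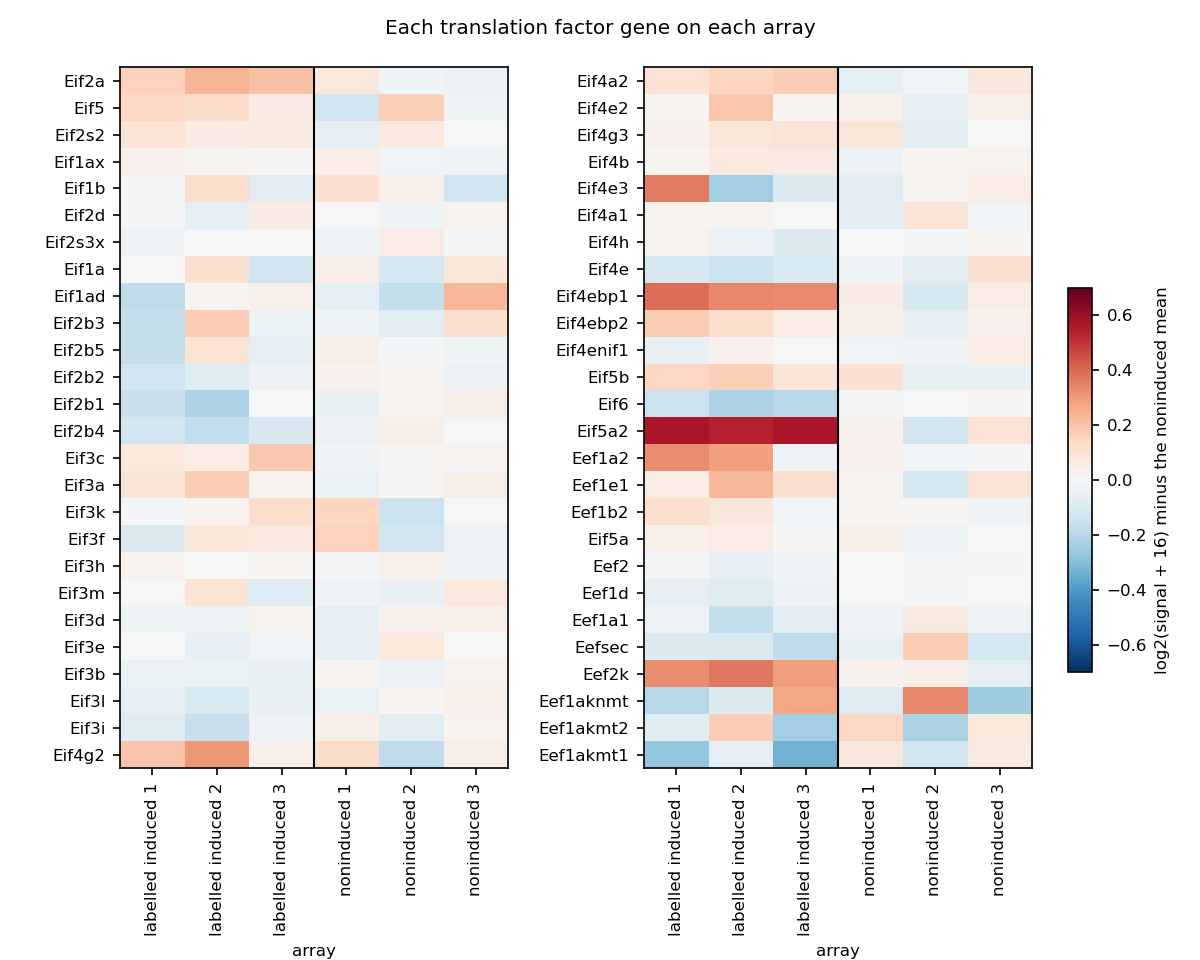
Each of the 52 genes (rows, by role) on each array (columns, the 3 arrays labelled induced left of the 3 noninduced arrays); colour gives log2(signal + 16) minus the gene's mean on the noninduced arrays. Eif5a2, Eif4ebp1 and Eef2k are red on all 3 arrays labelled induced, deepest for Eif5a2 and lighter for the others, while most rows stay pale.

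Eif4ebp1 encodes 4E-BP1, which binds eIF4E and keeps it from the cap-binding complex; it is a known target gene of the stress factor ATF4. Its brightest probe set, 1434976_x_at, gave 2201, 2118 and 2114 on the arrays labelled induced, against 1746, 1551 and 1734 on the noninduced arrays. The groups were well apart, and noninduced replicate 2 was the lowest array. The means were 2145 ± 49.2 and 1677 ± 109.2 (SD, n = 3 each), a log2 difference of 0.35 (SE 0.055, 95% interval 0.23 to 0.47, limma adjusted p = 0.0227). The suffix x marks a probe set whose probes may also bind other transcripts. A second probe set, 1417562_at, gave 1502, 1514 and 1436 on the arrays labelled induced and 1281, 1250 and 1288 on the noninduced arrays. It was 0.22 higher without passing (limma adjusted p = 0.0929), and a dimmer one, 1417563_at, was at 0.15. The first value was 0.45 after median centring, and 0.39 within the first fluidics run, where labelled induced replicate 1 stands against the 3 noninduced arrays. The call was lost without any 1 of 4 arrays: the limma adjusted p was 0.125 without labelled induced replicate 1, 0.0824 without labelled induced replicate 2, 0.0748 without noninduced replicate 2 and 0.0813 without noninduced replicate 3. The log2 fold change lay between 0.30 and 0.38 when any 1 array was left out. It was also lost without a variance trend (0.293), with no signal filter (0.105) and with the fluidics run as a block (0.246), which rests on 1 treated array.

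The other genes that restrain eIF4E did not pass. Eif4ebp2, the related inhibitor 4E-BP2, gave 381, 367 and 348 on the arrays labelled induced, against 345, 319 and 343 on the noninduced arrays (log2 0.12). Its probe sets did not go one way: 1417084_at gave 286, 311 and 278 on the arrays labelled induced, against 339, 466 and 353 on the noninduced arrays (log2 -0.37, limma adjusted p = 0.156), and the remaining ones were at -0.06 and -0.22. No direction can therefore be given for Eif4ebp2. Eif4enif1, which carries eIF4E into the nucleus, was at -0.01 (0.09 after median centring).

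Eef2k, the kinase that switches eEF2 off, was next to Eif4ebp1 among the brakes on translation. It gave 242, 250 and 236 on the arrays labelled induced, against 194, 196 and 180 on the noninduced arrays. The groups did not overlap, and the difference of 0.33 on the log2 scale (SE 0.082, 95% interval 0.15 to 0.51) missed the threshold (limma adjusted p = 0.117, and 0.0464 after median centring). Its dimmer probe sets were at 0.20 and 0.19. The methyltransferases that modify eEF1A were near 0 or lower: Eef1akmt2 was at -0.05 (0.04 after median centring) and Eef1aknmt at -0.01 (0.09 after median centring), both with wide intervals. Eef1akmt1 gave 378, 437 and 362 on the arrays labelled induced, against 485, 415 and 479 on the noninduced arrays, with overlapping groups (log2 -0.22, limma adjusted p = 0.274). Its other probe sets were at -0.07 and 0.03.

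Eif5a2, the second gene for the hypusine-bearing factor eIF5A, which helps ribosomes past difficult peptide bonds, had the largest log2 fold change of the 52 genes. It gave 137, 134 and 137 on the arrays labelled induced, against 89.2, 78.2 and 94.4 on the noninduced arrays. The arrays labelled induced were all above the noninduced ones and close to each other (means 136 ± 2.07 and 87.3 ± 8.27; SD, n = 3 each). On the log2 scale the difference was 0.56 (SE 0.109, 95% interval 0.32 to 0.80); limma's adjusted p was 0.0615, and 0.0242 after median centring. The second probe set of Eif5a2, 1438256_at, was dimmer and its groups overlapped: 69.6, 81.3 and 88.9 on the arrays labelled induced, against 63.4, 133 and 72.4 on the noninduced arrays (log2 -0.09). Eif5a, the abundant paralogue, gave 8698, 8796 and 8531 on the arrays labelled induced, against 8716, 8271 and 8477 on the noninduced arrays (log2 0.03). Another Eif5a probe set, 1437859_x_at, was at -0.17 (limma adjusted p = 0.126), so the direction for Eif5a depended on the probe set.

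**Figure D3:**
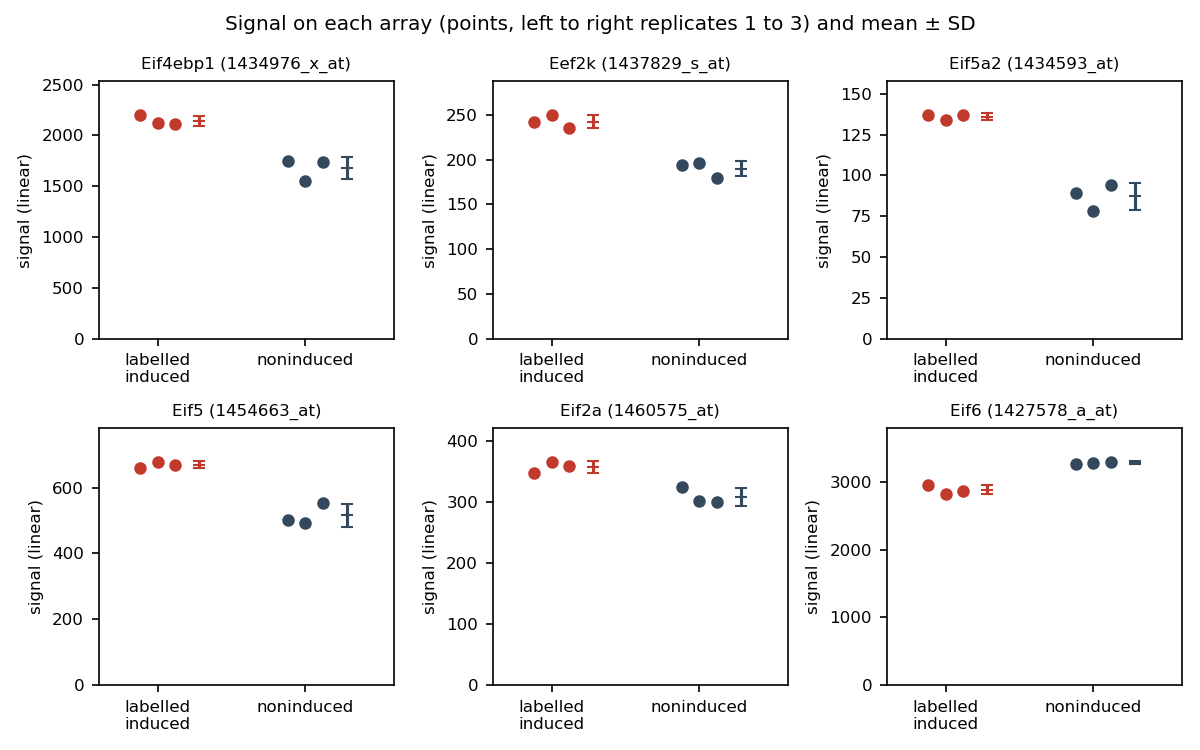
Linear signal (y axis, from 0) on each array for the brightest probe set of Eif4ebp1, Eef2k, Eif5a2, Eif2a and Eif6 and for the Eif5 probe set 1454663_at, drawn in place of the brightest one of Eif5, whose groups overlapped; the arrays labelled induced stand left of the noninduced arrays, points are replicates 1 to 3 and the bar beside them is the mean ± SD (n = 3). The groups do not overlap for these 6 probe sets, and only Eif6 is lower on the arrays labelled induced. The choice does not represent the family: of the 52 genes, 7 lay higher and 8 lower without overlap. For Eif5 the probe set with the smallest limma p was drawn. Its probe sets 1433631_at (log2 0.23) and 1415723_at (log2 0.15) also had groups that did not overlap.

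Promoter sequence was available from RefSeq (GRCm38.p6) for 44 of the 55 genes; Eif4ebp1 and Eif6 were not among them. The E-box CACGTG, bound by MYC and related factors, was searched on both strands in the 250 bases before each annotated start. It was found in at least 1 window of 11 of the 44 genes (25%), against 6.86% of all 27025 genes and 10.1% of the 8732 genes that have a probe set above the signal filter. The ATF4 type motif TGATGNAA, likewise on both strands, was found in 2 of the 44 (4.55%), Eef2k and Eif2s3x, against 3.91% of all genes and 2.26% of the genes with a probe set above the filter. The 2 motifs did not share a window. The shares are a description of the letters and were not tested. Of the 11 genes with an E-box, Eif5a2, Eef2k and Eif4e had groups that did not overlap. Among the 52 translation factor genes that share was 28.8%, and among all genes 22.3%. A link between the motif and the signals was not tested. The windows of Eif5a2, Eef2k and Eif4e are shown 5′ to 3′ because their groups did not overlap, with the E-box in capitals.
Eif5a2 (chr3:28781027-28781276, + strand): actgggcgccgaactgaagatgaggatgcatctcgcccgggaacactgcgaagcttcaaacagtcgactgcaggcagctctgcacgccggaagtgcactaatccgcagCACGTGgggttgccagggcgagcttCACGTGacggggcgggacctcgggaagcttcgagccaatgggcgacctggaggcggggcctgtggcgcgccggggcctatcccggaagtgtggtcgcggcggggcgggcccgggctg
Eef2k (chr7:120842581-120842830, + strand): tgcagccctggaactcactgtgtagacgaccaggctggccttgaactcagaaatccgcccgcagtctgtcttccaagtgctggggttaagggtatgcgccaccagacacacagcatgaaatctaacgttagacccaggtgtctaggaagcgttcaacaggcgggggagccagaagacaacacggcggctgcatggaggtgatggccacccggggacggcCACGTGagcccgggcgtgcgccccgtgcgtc
Eif4e (chr3:138527018-138527267, + strand): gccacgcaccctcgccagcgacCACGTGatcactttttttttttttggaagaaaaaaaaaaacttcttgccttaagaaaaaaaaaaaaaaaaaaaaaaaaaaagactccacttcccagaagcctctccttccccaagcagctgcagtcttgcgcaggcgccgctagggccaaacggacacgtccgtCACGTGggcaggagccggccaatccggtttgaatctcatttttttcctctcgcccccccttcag
The other 8 genes with an E-box were Eef2 (-0.03, and 0.06 after median centring), Eif5a (0.03), Eif4a1 (0.01), Eif4h (-0.04, and 0.06 after median centring), Eif3f (0.02), Eif3k (0.05), Eif1b (0.01) and Eef1aknmt. So genes with the motif lay on both sides of 0: Eif5a2 and Eef2k were higher, Eif4e was lower, and the others were within 0.05 of it.

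None of the cap-binding and helicase factors passed. Of 10 genes 9 lay above the filter, and 7 were positive and 2 negative (median 0.05), and 8 and 1 after median centring. Eif4e, the cap-binding protein, gave 2738, 2682 and 2760 on the arrays labelled induced, against 2908, 2809 and 3217 on the noninduced arrays. The groups did not overlap but were close (log2 -0.12, 95% interval -0.24 to -0.01, limma adjusted p = 0.310; -0.03 after median centring), and its other probe sets were at -0.09, -0.02 and 0.12. Eif4a2, a helicase of the same complex, gave 3531, 3656 and 3713 on the arrays labelled induced, against 3151, 3248 and 3478 on the noninduced arrays (log2 0.14, limma adjusted p = 0.209). Its paralogue Eif4a1 gave 7525, 7537 and 7431 on the arrays labelled induced and 7068, 7912 and 7345 on the noninduced arrays, with a 95% interval of -0.09 to 0.11. Eif4g2, a scaffold homologue that acts without the cap, was at 0.18 with overlapping groups. Eif4b, which stimulates the helicase, was at 0.05. The cap complex scaffold Eif4g3 was at 0.07 with its brightest probe set and at -0.37 with a dimmer one. Eif4e2, a cap-binding repressor, was at 0.08 with its brightest probe set and at -0.15 with another. Eif4e3 was at 0.01 with an interval of -0.30 to 0.33, and its value for labelled induced replicate 1 alone was 0.37.

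None of the start-site factors passed. Eif5 encodes the activator of GTP hydrolysis by eIF2, and its 5 probe sets differed. The brightest, 1454664_a_at, gave 2463, 2443 and 2323 on the arrays labelled induced, against 2031, 2502 and 2182 on the noninduced arrays, with overlapping groups (log2 0.11). In contrast, 1454663_at gave 659, 679 and 669 on the arrays labelled induced, against 501, 491 and 554 on the noninduced arrays. That log2 fold change was 0.37 (95% interval 0.23 to 0.51), with a limma adjusted p of 0.050, just above the threshold before rounding. It passed after median centring (limma adjusted p = 0.0219), with a pseudocount of 64 (0.0451) and with the signal filter at the 75th percentile (0.0363). The probe set passed in none of the other settings, among them quantile normalization, no filter, no variance trend and each array left out in turn. With each array left out in turn its log2 fold change ran from 0.34 to 0.42. Further Eif5 probe sets were at 0.23 and 0.15 with groups that did not overlap, and the dimmest was at -0.06.

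Eif2a encodes eIF2A, an initiator tRNA carrier distinct from the subunits of eIF2. It gave 347, 366 and 358 on the arrays labelled induced, against 325, 301 and 299 on the noninduced arrays (log2 0.20, 95% interval 0.04 to 0.36, limma adjusted p = 0.235). The eIF2 subunits tested, beta and gamma, were near 0 with their brightest probe sets. Eif2s1, the gene of the alpha subunit, was not among the genes kept by the rule. Eif2s2, the beta subunit, gave 5291, 5168 and 5177 on the arrays labelled induced and 4735, 5188 and 4957 on the noninduced arrays (log2 0.07). All 6 of its probe sets were positive, and 1448820_a_at was at 0.31 (limma adjusted p = 0.129). Eif2s3x, the gamma subunit, was at -0.01 (0.09 after median centring), and its other probe sets were at 0.14 and -0.06. Eif1ax (0.02) and Eif1b (0.01) were also close to 0, and the values of Eif2d (0.00), Eif1a (-0.01) and Eif1ad (-0.04) were 0.09, 0.08 and 0.05 after median centring. A second Eif1a probe set, 1424344_s_at, gave 756, 814 and 796 on the arrays labelled induced, against 888, 885 and 932 on the noninduced arrays. Its groups did not overlap (log2 -0.19, limma adjusted p = 0.165; -0.10 after median centring), unlike those of the brightest. Of 9 start-site genes above the filter, 5 were positive and 4 negative (median 0.01), and 9 and 0 after median centring (median 0.10).

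All 5 genes of eIF2B, the nucleotide exchange factor of eIF2, were negative, with a median of -0.09, and none passed. The sign held for 5 of 5 after quantile normalization and for 2 of 5 after median centring (median 0.01). Eif2b4, the delta subunit, gave 618, 600 and 626 on the arrays labelled induced, against 658, 697 and 680 on the noninduced arrays. These groups did not overlap (log2 -0.14, 95% interval -0.27 to -0.01, limma adjusted p = 0.30). Eif2b2, the beta subunit, gave 1641, 1696 and 1746 on the arrays labelled induced, against 1835, 1814 and 1751 on the noninduced arrays, a narrow gap (log2 -0.09; 0.01 after median centring). Another of its probe sets, 1451136_a_at, was at -0.32 with labelled induced replicate 3 (1563) level with the noninduced arrays (1546, 1590 and 1554). Eif2b1 was at -0.12, Eif2b5 at -0.05 (0.05 after median centring) and Eif2b3 at -0.01 (0.08 after median centring). The groups overlapped for these 3 genes.

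The 11 genes of the scaffold complex eIF3 that the rule kept all lay above the filter, and none passed. Every value lay between -0.09 and 0.10, 6 positive and 5 negative (median 0.00); after median centring 11 were positive and 0 negative (median 0.09). Eif3c, a core subunit, gave 3561, 3505 and 3865 on the arrays labelled induced, against 3324, 3408 and 3426 on the noninduced arrays (log2 0.10, limma adjusted p = 0.334). All 4 Eif3c probe sets were positive, between 0.10 and 0.15. Eif3a, the largest subunit, was at 0.10 with overlapping groups, and its other probe sets ran from -0.03 to 0.21. Eif3l gave 4266, 4155 and 4312 on the arrays labelled induced, against 4328, 4504 and 4579 on the noninduced arrays (log2 -0.07, and 0.02 after median centring). Eif3b gave 1411, 1415 and 1408 on the arrays labelled induced, against 1478, 1417 and 1485 on the noninduced arrays, so the groups were separated by noninduced replicate 2 only narrowly (log2 -0.05, and 0.05 after median centring). Eif3h was at 0.01 with an interval of -0.07 to 0.10, and Eif3e at -0.02 (0.07 after median centring) with one of -0.12 to 0.07. Eif3i was at -0.09 (0.00 after median centring) and Eif3d at -0.01 (0.08 after median centring), both with overlapping groups, and Eif3m was at 0.00.

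Eif6 encodes the factor that keeps large ribosomal subunits from joining too early. It gave 2968, 2833 and 2878 on the arrays labelled induced, against 3271, 3294 and 3310 on the noninduced arrays. The groups were apart by more than their own spread (2893 ± 68.8 and 3292 ± 19.4; SD, n = 3 each). The difference on the log2 scale was -0.19 (SE 0.042, 95% interval -0.28 to -0.09, limma adjusted p = 0.0929), or -0.09 after median centring. Its dim probe set, 1431582_at, gave 97.1, 103 and 98.8 on the arrays labelled induced, against 129, 127 and 138 on the noninduced arrays (log2 -0.35, limma adjusted p = 0.162). Both probe sets were thus lower, and neither passed. Eif5b, which brings the subunits together, was at 0.13 with overlapping groups.

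None of the core elongation factors passed. Eef1a1, the main carrier of aminoacyl-tRNA, gave 12242, 11199 and 11938 on the arrays labelled induced, against 12284, 13121 and 12313 on the noninduced arrays. The gap between the groups was small beside their spread (log2 -0.09, 95% interval -0.19 to 0.00, limma adjusted p = 0.354; 0.00 after median centring). Eef2, the translocase, gave 6724, 6500 and 6645 on the arrays labelled induced and 6789, 6713 and 6827 on the noninduced arrays, with an interval of -0.11 to 0.05. Eef1b2, an exchange factor of eEF1A, was at 0.06. Eef1d, another one, was at -0.06 (0.03 after median centring) with its brightest probe set, at 0.16 with 1439439_x_at and at -0.34 with 1428135_a_at. Each of those 3 probe sets had groups that did not overlap, in both directions, and the limma adjusted p values were 0.494, 0.187 and 0.139. Eef1a2, the form of adult muscle and nerve, gave 178, 173 and 135 on the arrays labelled induced, against 142, 137 and 138 on the noninduced arrays, so its 0.19 rested on 2 of 3 arrays. Eef1e1, placed in this list by its symbol and not by its function, was at 0.13. The selenocysteine factor Eefsec was at -0.13, and the groups of both genes overlapped.

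Probe sets of 1 gene often differed in sign. Of 34 genes with more than 1 probe set above the filter, 20 had values on both sides of 0. That share was not counted over all genes, so it is not read as particular to this family. For the brightest probe sets the median size was 0.064, less than the 0.13 that the median 95% interval reached to either side. For Eif5a2, Eef1d, Eif4ebp2 and Eif4g2 they lay farthest apart. Eif4ebp1, Eef2k, Eif2a, Eif2s2, Eif3c, Eif3m, Eif4b and Eif4e3 had every tested probe set on the positive side, and Eif6, Eif2b2, Eif2b5, Eif1a, Eif1ad and Eif3e had every one on the negative side, before any centring. The suffixes a, s and x of a probe set name mark probes shared by several transcripts of a gene or of other genes, and the sequences of the probes themselves were not analysed here.

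**Figure D4:**
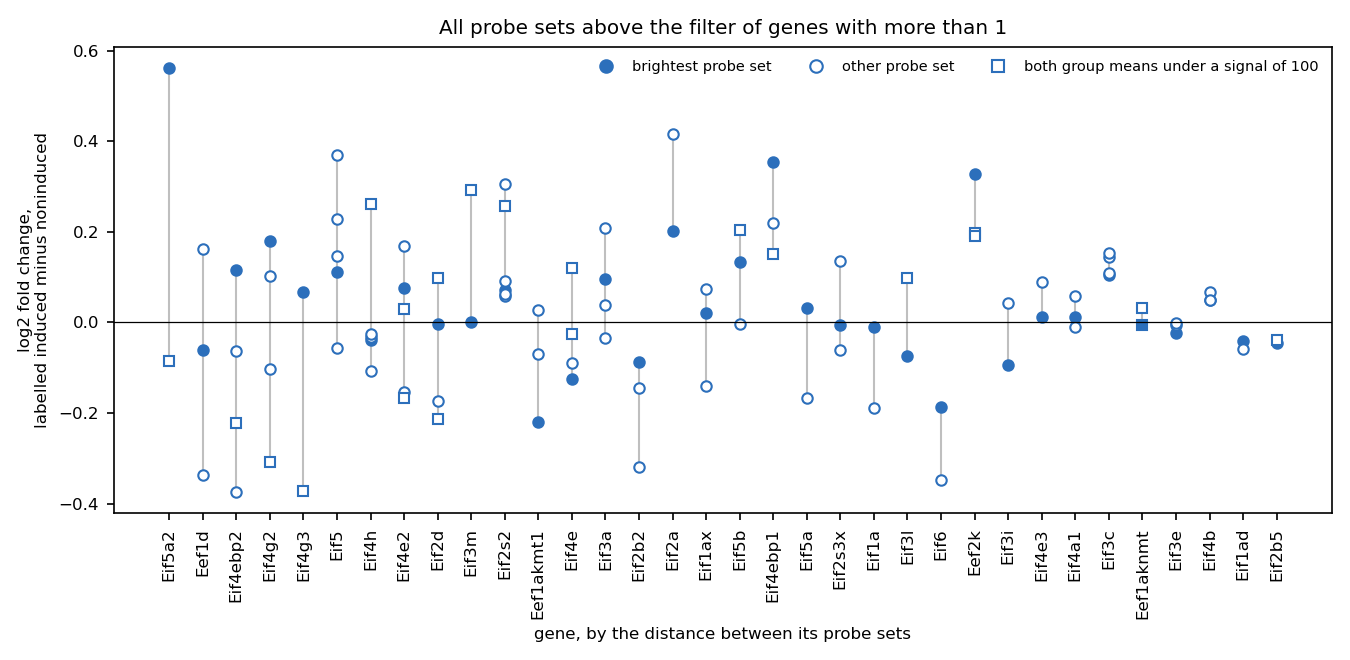
Log2 fold change (y axis, arrays labelled induced minus noninduced arrays) of every probe set above the filter for the 34 genes with more than 1, ordered by the distance between them. Filled symbols are the brightest probe sets and squares are probe sets with both group means under a signal of 100; 20 genes have symbols on both sides of 0.

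The brightest probe sets of 3 genes lay below the filter and were not tested: Eif4a3, a helicase of the exon junction complex, at 2.05 to 4.03 on the arrays labelled induced and 2.87 to 2.99 on the noninduced arrays, the eEF2 methyltransferase Eef2kmt at 3.21 to 6.16 and 2.48 to 6.76, and the Y-linked Eif2s3y at 0.280 to 2.53 and 1.02 to 1.67. These low signals are those of the single-gene probe sets used here. A further 8 probe sets are annotated to several genes, among them Eef1g, Eif3j1, Eif4ebp3 and another Eif4a3 probe set, and were left out by the rule. Eif2s1, Eif4g1, Eif3g and Eif1 were also not among the genes kept, so nothing is said about them here.

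Genes that act on these factors were counted from 5 lists. Of 55 such genes above the filter none passed with its brightest probe set, beside 0.307% of all genes. Among the eIF2 kinases and their partners (8 genes, median 0.04), Eif2ak4, the amino acid sensor GCN2, was at 0.30 (limma adjusted p = 0.280) and Eif2ak3, the endoplasmic reticulum sensor PERK, at -0.29 (0.262). Both had groups that did not overlap, in opposite directions. Among the mTORC1, S6 kinase and MNK genes (15 genes, median 0.00), 9 were positive and 6 negative, and 13 and 2 after median centring. Ddit4 and Deptor were highest. Ddit4 gave 1144, 1059 and 1262 on the arrays labelled induced, against 976, 957 and 874 on the noninduced arrays (log2 0.30, limma adjusted p = 0.105, and 0.0355 after median centring). Deptor gave 816, 912 and 774 on the arrays labelled induced, against 726, 653 and 710 on the noninduced arrays (log2 0.25, limma adjusted p = 0.150). Mtor itself was at 0.08 with its brightest probe set and at -0.47 with a dimmer one, both with overlapping groups, and Rptor was at -0.21. Rheb was at 0.15 with overlapping groups. Akt1s1 was at -0.09 (0.00 after median centring) with groups that did not overlap.

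In the poly(A)-binding, termination and recycling list (16 genes, median -0.05, and 0.04 after median centring) the largest values of brightest probe sets were -0.25 for Pelo and -0.21 for Gspt2, both dim (-0.16 and -0.12 after median centring). The helicase gene Ddx3x came next and gave 3545, 3531 and 3170 on the arrays labelled induced, against 3021, 2927 and 2948 on the noninduced arrays. Its groups did not overlap (log2 0.20, limma adjusted p = 0.118), and it was at 0.29 after median centring; its other probe sets were at 0.10 and 0.03. Etf1, the release factor that reads stop codons, fell with 1 probe set, 1420024_s_at (log2 -0.40, limma adjusted p = 0.0476), while its brightest was at -0.14 (-0.04 after median centring) and its 3 remaining tested ones were positive, at 0.11, 0.08 and 0.41, with overlapping groups. No direction can therefore be given for Etf1 as a gene. The call of 1420024_s_at was lost without any 1 of the 6 arrays, with a limma adjusted p of 0.0681 to 0.120, and was also lost after median centring (0.0576). The enzymes of hypusine and diphthamide, the modified residues of eIF5A and eEF2, had a median of -0.10 (8 genes, 7 negative; -0.01 and 5 negative after median centring), with Dnajc24 at -0.23 and Dph3 at -0.15. The translation factors of mitochondria had a median of -0.05 (8 genes, 6 negative; 0.05 and 1 negative after median centring), with Mrrf at -0.21 and Mtif3 at -0.07 (0.02 after median centring).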

How the data were processed

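Total RNA of 3 samples labelled induced and 3 noninduced samples was hybridised to 1 Affymetrix Mouse430_2 array each, per the file headers. The deposited table gives each probe set's signal intensity on a linear scale. Per the submitters' processing notes, GCOS 1.1.1 was the software used; neither its settings nor its detection calls were part of the sources used here. From the values, each array was scaled to the same mean (150.0 after trimming 2% at each end), which hides any shift shared by most transcripts. The deposited instrument records (unit other) gave the hybridisation and scan times, per the file headers. Scan order followed the scan times. The fluidics runs were inferred: a gap of over 60 minutes between hybridisation times was taken to start a new run.

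Titles gave the groups. Of 45101 probe sets, 64 controls were set aside; 34945 had 1 gene in the platform annotation, 932 several and 9160 none listed. All 143 probe sets of the family matched the RefSeq table of GRCm38.p6, and 0 symbols changed. Values were taken to log2(value + 16), which understates the change of dim probe sets. The groups were compared with limma 3.58.1 (R 4.3.3), with moderated variances that follow a trend on signal and Benjamini-Hochberg adjustment over 22518 probe sets (threshold 0.05). With 3 arrays in a group, their number sets the precision. The steps were tested on simulated data. The members and gene lists were chosen with earlier results of these data known. The genes named are those past the threshold; per role those with groups that do not overlap, the 2 brightest and the 2 with the largest change; those whose probe sets differ in sign with an unadjusted p under 0.05 for 1 of them; per pathway list the 2 with the largest change; and Itga7. Others were named after their values were seen. Alternatives were quantile normalization, median centring, other signal filters and pseudocounts, no variance trend, the fluidics run or the replicate number as a block, the first run alone, leaving out each array, and averaging all probe sets per gene.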

Additional observations from a re-analysis of the deposited data

How the results depend on the processing

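Over all probe sets the 45 calls became 103 when the filter was put at the 75th percentile, 306 after median centring, 73 with a pseudocount of 64, 1 with no filter (where 4563 had an unadjusted p under 0.05, against 3305 in the reported comparison) and 0 without a variance trend (2818), with a block for fluidics run (1918) and in the first run alone (1978). Leaving out 1 array gave 1 to 58: 2 and 11 without labelled induced replicates 1 and 2, and 1 and 9 without noninduced replicates 2 and 3. The count of translation factors past the test, 1, became 3 after median centring (Eif4ebp1, Eef2k and Eif5a2), 0 to 1 when 1 array was left out, and 0 by limma with no filter, without a variance trend, with the run as a block and in the first run alone (9, 5, 5 and 7 genes at an unadjusted p under 0.05). With the replicate number as a block there were 7 calls over all probe sets and 0 among translation factors (8 at an unadjusted p under 0.05); the labels do not say that a number marks a shared batch, and same-numbered samples deviated from their group means with correlations of 0.013, -0.062 and -0.0053. The median over the translation factors was 0.0986 after median centring and between 0.0020 and 0.0158 when 1 array was left out; with each other setting it moved by less than the spread between arrays (0.018).

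Among the genes chosen by the naming rule, signs turned after median centring for Eif4enif1 (0.0853), Eif2s3x (0.0875), Eif3e (0.0711), Eif4h (0.0553), Eif2b5 (0.0473), Eif3b (0.0451), Eef1d (0.0330), Eif3l (0.0189), Mtif3 (0.0184), Eif2b2 (0.0066) and Eef1a1 (0.0007), and with the run as a block and in the first run alone for Eif4h (0.0261) and Eif3e (0.0050). When 1 array was left out the value ran from -0.19 to 0.0189 for Mtif3, -0.0239 to 0.0572 for Eif4a1, -0.12 to 0.01 for Eif2b5, -0.0564 to 0.0146 for Eif3e, -0.0250 to 0.02 for Eif4enif1 and -0.0238 to 0.0201 for Eif2s3x. The causes were not tested. Of the 52 genes, 33 kept their sign after median centring, 49 after quantile normalization and 44 to 48 when 1 array was left out. Without detection calls, signals near the filter cannot be told from background.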
